A study of Mus musculus with 6 samples.

Results

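The cells described here are alveolar matrix fibroblasts of the mouse lung at postnatal day (P) 21, chosen by their measured transcripts. A barcode was taken when at least 3 of the 6 genes Inmt, Spon1, Itga8, Tcf21, Scube2 and Pdgfra had a unique molecular identifier (UMI, 1 per captured transcript). It had to hold at least 1500 UMIs in the Bdnf or 700 in the Hgf libraries, a mitochondrial share of at most 25%, at most 1 UMI over the fibroblast genes Pi16, Mfap5, Hhip and Aspn, and at most 1 over Pecam1, Cldn5, Ptprc, Etv5, Rtkn2 and Upk3b of other lineages. This selected 960 of the 70427 lung barcodes within the UMI and mitochondrial limits, and of 78320 such barcodes in the whole series. Since the 6 genes and the 10 excluded genes were used for the selection, their levels describe the cells and are no finding.

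The study deleted Bdnf or Hgf in cells with an active Pdgfrb promoter and sequenced dissociated lungs of mutants and littermate controls on the BD Rhapsody system, which reads polyadenylated RNA from its 3' end. Lungs gave 4 libraries, and values are given in the order control (Bdnf lox/lox) and mutant of the Bdnf pair, then control (Hgf lox/lox) and mutant of the Hgf pair. In the iPCKO mutants the tamoxifen-inducible recombinase CreERT2 is driven by Pdgfrb regulatory sequence on a bacterial artificial chromosome, which the controls lack. All mice, controls included, received 50 µg tamoxifen in each of 3 injections from P1 to P3. Each library pools the cells of 2 mice of 1 genotype, about 40000 cells were prepared, and CD45+ cells and erythrocytes were depleted. The sex of the mice is not given. With 1 library for each genotype no comparison has a replicate, so no test was made. Genes are called higher or lower by size alone, and all intervals are 95% intervals that cover counting error only. Differences between litters, dissociations or runs cannot be told apart from those between genotypes.

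Alveolar matrix fibroblasts, also known as Col13a1 matrix fibroblasts or lipofibroblasts, lie in the alveolar septum next to the epithelium and the capillaries. They deposit elastic and collagen fibres, store lipid and retinoid, and secrete growth factors such as FGF10 that act on alveolar epithelial cells. Adventitial fibroblasts of the cuffs around vessels and airways and the alveolar myofibroblasts that form elastin at septal tips are the fibroblast types closest to them.

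The 4 libraries gave 373, 288, 144 and 155 cells, with medians of 3357, 2919.5, 1544 and 1229 UMIs and 1608, 1491.5, 879 and 765 genes per cell. Their summed UMIs were 1576435, 992466, 294231 and 249795, so that the Bdnf pair carries several times the depth of the Hgf pair. As a share of the barcodes within the limits the cells were 2.23% (exact Clopper-Pearson 2.01 to 2.46%), 1.21% (1.08 to 1.36%), 1.02% (0.862 to 1.202%) and 0.980% (0.832 to 1.15%). With every barcode thinned to 1500 UMIs, which left out 37, 83, 1807 and 3220 shallower barcodes, the shares were 3.30, 2.10, 0.985 and 0.516%. In both pairs the thinned share was lower in the iPCKO library, and in the unthinned data this held beyond counting error in the Bdnf pair. With no UMI of an excluded gene allowed, the Hgf pair turned, at 0.639% in the control and 0.714% in the iPCKO library. CD45 depletion, dissociation yield and the selection all act on these shares.

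The selection leaves out deeply sequenced cells. Of 1713, 2061, 572 and 410 barcodes with at least 3 of the 6 genes, 78.2, 86.0, 74.8 and 62.2% failed a limit on excluded genes, and these had medians of 10929, 7469, 5922.5 and 3998 UMIs. All 6 genes were detected in 63.8, 38.9, 25 and 5.16% of the chosen cells, and only 3 of them in 7.77, 15.97, 21.5 and 33.5%. The libraries have the same order in median UMIs, and each iPCKO library holds a larger share of cells near the lower limit of the selection than its control does. At 3 genes the summed level of the 6 was 3047, 2954, 7088 and 9431 CPM (the UMIs of a gene scaled by all UMIs of the same cells), against 665, 925, 3047 and 4028 CPM in otherwise eligible barcodes with 2 genes, just outside the selection. Scrublet marked 15, 39, 0 and 2 of the cells as doublets (4.02, 13.5, 0 and 1.29%), and they were kept. 1 barcode sequence was shared between chosen cells of the Bdnf control and the Hgf iPCKO library, and none between the other pairs of libraries.

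The 6 selection genes had the following levels, which the selection itself sets. Inmt, a methyltransferase of indole amines and the most abundant of the 6 genes, had 5044, 3418, 7518 and 7974 CPM, against 629, 576, 1232 and 2249 CPM in adventitial fibroblasts and 104, 24.1, 93.1 and 41.6 CPM in myofibroblasts of the same libraries. These comparison cells, 2029 adventitial fibroblasts and 3129 myofibroblasts, had at least 2 UMIs over Pi16 and Mfap5 or over Hhip and Aspn, at least 3 genes of a marker set of their type, and the same limits on depth and other lineages. Spon1, which encodes the matrix protein spondin 1, had 2991, 2134, 1220 and 1009 CPM. Tcf21, a transcription factor of lung mesenchyme, had 1638, 1171, 1424 and 552 CPM, and Itga8, the integrin subunit that binds nephronectin, 1540, 868, 1054 and 476 CPM. Scube2, a secreted carrier of hedgehog protein, had 639, 333, 374 and 256 CPM, and Pdgfra, the receptor of PDGF-A, 2483, 2199, 1692 and 2454 CPM. Itga8 was lower in both iPCKO libraries than in their controls, with log2 ratios of −0.83 and −1.15, whereas Pdgfra differed by −0.18 and 0.54.

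**Figure D1:**
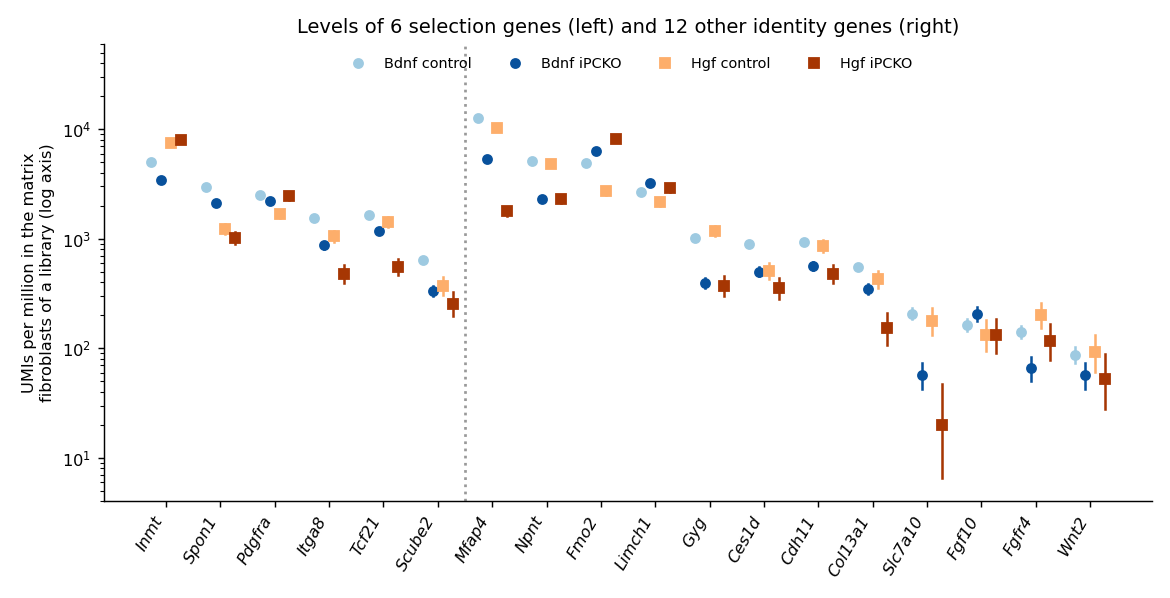
Levels (CPM, log axis) of the 6 selection genes and 12 other identity genes in the matrix fibroblasts of the 4 libraries, with exact Poisson 95% intervals for counting error. Mfap4, Npnt, Gyg, Cdh11, Col13a1 and Slc7a10 are lower in both iPCKO libraries than in their controls, and Fmo2 is higher.

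RNA of other cells was present in these barcodes. The marker list of alveolar type 2 (AT2) cells summed to 10057, 17089, 7700 and 7544 CPM, which is 33.4, 68.0, 19.8 and 49.8% of its level in free RNA, measured in barcodes of 10 to 100 UMIs. The airway list, led by the club cell secretoglobin Scgb1a1, summed to 2395, 8278, 1587 and 4380 CPM and was higher in both iPCKO libraries. The alveolar type 1 list summed to 1852, 2076, 1684 and 2726 CPM and the immune list to 1682, 2115, 1317 and 1217 CPM. The endothelial list stood at 456, 549, 340 and 600 CPM against 4670 to 6301 CPM in free RNA. Pericyte markers summed to 214, 517, 262 and 214 CPM, which is 98.9, 203, 116 and 54.3% of free RNA. Smooth muscle markers summed to 472, 1053, 761 and 142 CPM, or 174, 316, 358 and 70.4% of free RNA. Adventitial markers summed to 712, 1936, 1557 and 2049 CPM, against 12639 to 19496 CPM in adventitial fibroblasts. Their level was 68.3, 239, 175 and 271% of that in free RNA. Haemoglobins were near 0, at 5.04 to 24.0 CPM. The selection limits Etv5 (AT2), Rtkn2 (alveolar type 1), Ptprc (immune), Pecam1 and Cldn5 (endothelium), Upk3b (mesothelium), and Pi16 and Mfap5 (adventitial). It thus holds down the sums of these cell types, and their low levels are in part set by it. In 34, 61, 9 and 15 cells (9.12, 21.2, 6.25 and 9.68%) the AT2 and airway lists held over 1% of all UMIs. These cells had fewer of the 6 genes, at medians of 5, 4, 4 and 3 against 6, 5, 5 and 4 in the others. The part of such RNA in the differences below was not tested. Leaving these cells out took several of the genes reported here under 1.5-fold (a log2 ratio of 0.58). In the Bdnf pair these were Lyz1 (0.19), Sftpd (0.24), Cbr2 (0.33), Rps23 (0.54), Sftpc (0.56), Wnt2 (−0.46), Vcam1 (−0.48), Serpinh1 (−0.49), Arntl (−0.50), Col6a3 (−0.54), Col13a1 (−0.55), Mapt (−0.55) and Gask1b (−0.58). For the Hgf pair they were Mt2 (0.23), Sftpd (−0.44), Cbr2 (−0.45) and Sh3bp5 (−0.51), and Lyz1 had too few UMIs left for a ratio.

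**Figure D2:**
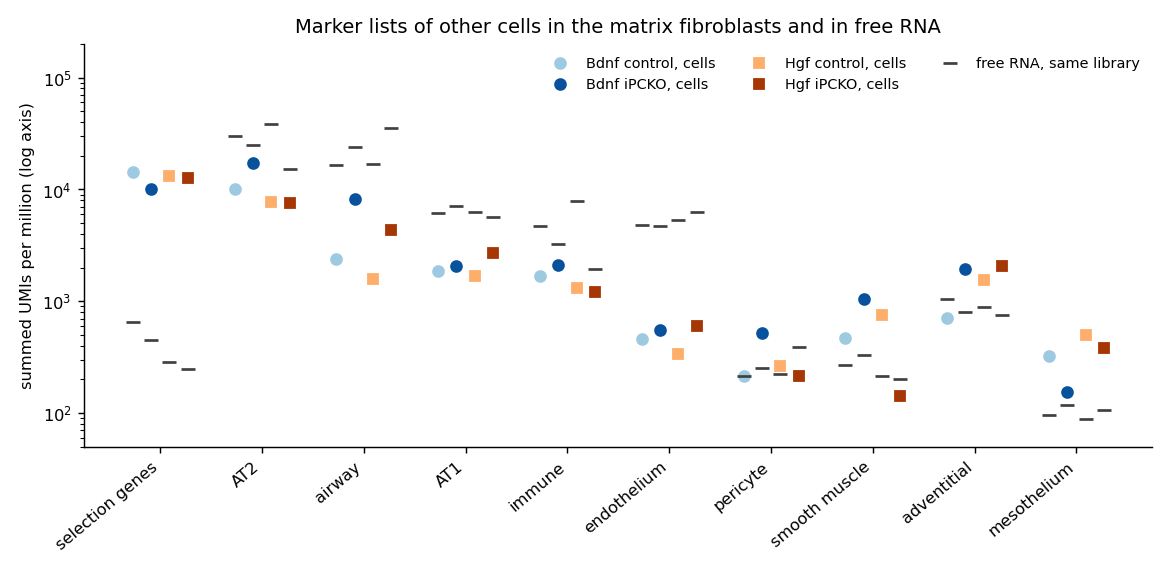
Summed CPM (log axis) of marker lists in the matrix fibroblasts of each library (points) and in free RNA of the same library (dashes). The selection genes stand far above free RNA, whereas AT2, airway, AT1, immune and endothelial markers stay below it in all 4 libraries. This is in part set by the selection, which limits genes of these cell types other than airway. Pericyte, smooth muscle and adventitial markers lie above it in some libraries, and mesothelial markers in all 4.

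Against adventitial fibroblasts of the same library, 544 of 6626 genes with at least 400 UMIs in the 2 cell types were more than 1.5-fold higher in the matrix fibroblasts of all 4 libraries (8.21%), and 452 were lower (6.82%). Against myofibroblasts, 352 of 5616 genes were higher (6.27%) and 385 lower (6.86%). These are contrasts between cells chosen by their genes and describe the cells. Markers of other cells are among the higher genes. All 10 measured AT2 markers were higher than in either fibroblast, and 7 of 8 and 6 of 7 alveolar type 1 markers. The adventitial fibroblasts were also deeper, at medians of 10088, 6554, 6352 and 3451.5 UMIs, and the myofibroblasts had 3734.5, 2815.5, 2152 and 1713.5. Of a list of 30 identity genes known from matrix fibroblasts that were not used for the selection, 19 of 27 measured genes were higher than in adventitial fibroblasts and 20 of 27 higher than in myofibroblasts, while 1 and 2 were lower.

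The genes furthest above adventitial fibroblasts in the library with the smallest ratio included Npnt, which encodes the basement membrane ligand nephronectin and had 5115, 2328, 4850 and 2302 CPM against 95.2, 129, 126 and 117 CPM. Fgfr4, an FGF receptor, had 141, 65.5, 201 and 116 CPM against 2.44, 2.60, 4.73 and 0 CPM. Hsd11b1, the enzyme that regenerates active glucocorticoid, had 799, 405, 799 and 825 CPM against 34.8, 20.7, 52.6 and 38.3 CPM. Adra1a, the alpha-1A adrenergic receptor, Mapt, which encodes the microtubule protein tau, Prkg2, a cGMP-dependent kinase, and the uroplakin Upk1b belonged to the same group. Upk1b had 292, 111, 469 and 320.3 CPM in matrix fibroblasts and at most 7.89 CPM in either other fibroblast, although it is also known from mesothelium. The 8 mesothelial markers, Upk1b included, summed to 326, 153, 496 and 380 CPM. The 12 genes furthest above myofibroblasts included the adhesion genes Cdh11 and Vcam1, the collagen gene Col13a1 and the dipeptidase gene Dpep1.

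Adventitial fibroblasts were far higher in fibrillar collagen. Col1a1 had 2473, 3873, 4133 and 3555 CPM in matrix fibroblasts and 29738 to 40625 CPM in adventitial fibroblasts. Of 24 measured genes of the fibrillar collagen list, 11 were lower than in adventitial fibroblasts in all 4 libraries and none was higher. Elastin, encoded by Eln, did not separate the 3 fibroblasts in this way, at 8100, 4840, 7443 and 5913 CPM in matrix fibroblasts, 7518, 10269, 7121 and 5164 CPM in adventitial fibroblasts and 6236, 10769, 4038 and 6854 CPM in myofibroblasts. By mean CPM over the 4 libraries, Mfap4, Eln, Inmt and Fmo2 were the most abundant transcripts of matrix fibroblasts, and Sftpc of AT2 cells was among the first 15 at 4759, 9040, 3385 and 3227 CPM. UMIs of a 3' assay are not proportional to transcript length, so these CPM are not divided by length.

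The targeted genes were scarce in these cells. Bdnf, on chromosome 2 from 109505045 to 109557475 of GRCm39, had 20, 3, 0 and 1 UMIs, or 12.7, 3.02, 0 and 4.00 CPM. This is below the 28.6 to 32.4 CPM of Bdnf in free RNA, and the level in myofibroblasts was 73.3, 56.5, 36.4 and 70.6 CPM. A count of 0 in the Hgf control allows a level of up to 10.2 CPM. Hgf, on chromosome 5 from 16758041 to 16828178, had 75, 23, 11 and 1 UMIs, or 47.6, 23.2, 37.4 and 4.00 CPM, and in both controls stood above its free RNA level of 20.3 and 17.2 CPM. It was higher here than in myofibroblasts of the 2 control libraries, where it had 4.01 and 4.05 CPM. Hgf was lower in the Hgf iPCKO cells by a log2 ratio of −3.22 (−8.65 to −0.44), from a single UMI, and lower in the Bdnf iPCKO cells by −1.04 (−1.78 to −0.35). The labels do not say which exon is flanked by lox sites, so reads from the 3' end need not report the deletion. Met, the HGF receptor, had 29.8, 26.2, 0 and 12.01 CPM, below its free RNA level of 56.7 to 203 CPM.

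Pdgfrb, whose promoter drives the recombinase, had 13, 78, 11 and 23 UMIs, or 8.25, 78.6, 37.4 and 92.1 CPM, and was higher in both iPCKO libraries with log2 ratios of 3.25 (2.40 to 4.22) and 1.30 (0.21 to 2.48). The second ratio was −0.17 when every cell was thinned to 1500 UMIs. Pdgfrb was also higher in the iPCKO library of each pair in adventitial fibroblasts (71.7, 148, 105 and 292 CPM), in myofibroblasts (77.3, 178, 146 and 633 CPM), in AT2 cells (1.76, 10.9, 1.68 and 10.6 CPM) and in free RNA (13.3, 42.7, 14.6 and 91.9 CPM). Ntrk2, which encodes the BDNF receptor TrkB, had 6, 37, 4 and 6 UMIs here, or 3.81, 37.3, 13.6 and 24.0 CPM, against 121 to 235 CPM in adventitial fibroblasts.

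In the Bdnf pair, 444 of 4697 genes with at least 100 UMIs in the 2 libraries together were more than 1.5-fold higher in the iPCKO cells (9.45%) and 372 were lower (7.92%). In the Hgf pair, where only 811 genes reached 100 UMIs, 190 were higher (23.4%) and 144 lower (17.8%). The median log2 ratio over all these genes was 0.01 in the Bdnf and 0.07 in the Hgf pair. The counts of a gene list below are read against these percentages.

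Of the identity genes of matrix fibroblasts, more were lower than higher in both mutants. Of the 30 genes of the list, 28 were measured in the Bdnf pair, and 12 were lower and 2 higher, with a median log2 ratio of −0.49. In the Hgf pair 21 were measured, of which 9 were lower and 2 higher, with a median of −0.35. Together the listed genes had 39825, 27193, 34126 and 26313 CPM. With the free RNA profile of each library subtracted, 5 were lower and 5 higher of 27 in the Bdnf pair (median −0.03) and 7 lower and 4 higher of 21 in the Hgf pair (median 0.06). In cells with at least 5 of the 6 selection genes and without over 1% of epithelial RNA, 6 were lower and 1 higher of 26 (median −0.22), and 6 lower and 4 higher of 13 (median −0.48). The subtraction was scaled to the summed AT2 list and left 71, 46.0, 82.7 and 61.2% of the UMIs. It took the AT2 list, at 33.4, 68.0, 19.8 and 49.8% of its free RNA level, as free RNA only. The airway list stood at 14.6, 34.8, 9.43 and 12.4%, so a scale set by it would take out less in each library. In the median cell the AT2 and airway lists held 0.199, 0.334, 0.232 and 0.279% of the UMIs. The subtraction may therefore take out too much, and its size was not tested. CPM of the UMIs left raise genes scarce in free RNA more in iPCKO than in control cells. Inmt moved from −0.56 to 0.06 and from 0.09 to 0.51, and Pdgfra from −0.18 to 0.43 and from 0.54 to 0.96. All ratios with free RNA subtracted carry this shift. The median of the list thus depends on this scaling and on the cells taken. Mfap4, Npnt, Gyg, Slc7a10, Col13a1 and Cdh11 had log2 ratios below 0 in both pairs under each of the 12 other settings tried. The one nearest to 0 was −0.06 for Col13a1 in the Bdnf pair with free RNA subtracted.

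Mfap4, which encodes an elastin-binding glycoprotein of the septal matrix and lies on chromosome 11 from 61376212 to 61379727, had 12753, 5360.4, 10186 and 1782 CPM. It was lower in the iPCKO cells by a log2 ratio of −1.25 (−1.29 to −1.21) in the Bdnf and −2.52 (−2.66 to −2.37) in the Hgf pair, and the 2 controls were both higher than the 2 mutants. Its level in adventitial fibroblasts was 3427, 2905, 3320 and 1522 CPM, so that it was lower there in the Hgf iPCKO library too. Among cells with 6, 5, 4 and 3 of the selection genes, Mfap4 was lower in the iPCKO cells at each number in both pairs, for example 14445 and 7917 CPM (Bdnf pair) and 13150 and 1352 CPM (Hgf pair) at 6 genes, where the Hgf iPCKO library has 8 cells. With cells thinned to 1000 UMIs, which left out 0, 0, 30 and 58 cells, a Mfap4 UMI was found in 94.4, 68.8, 93.0 and 69.1% of the cells, against 4.18, 3.25, 1.43 and 0.311% of AT2 cells. Unthinned, the shares were 97.3, 83.3, 97.2 and 74.2% of the cells.

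**Figure D3:**
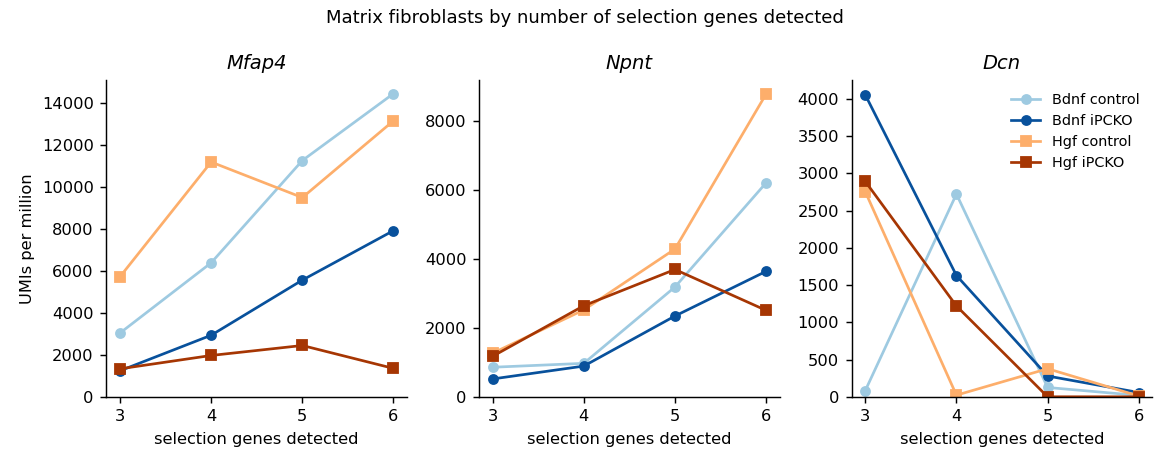
Level (CPM) of Mfap4, Npnt and Dcn in the matrix fibroblasts of each library, split by how many of the 6 selection genes a cell had. Mfap4 is lower in the iPCKO cells of both pairs at every number of genes, Npnt of the Hgf pair differs mainly at 6 genes, and Dcn is highest in cells with 3 or 4 genes.

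Npnt, on chromosome 3 from 132587506 to 132656257 (minus strand), had 5115, 2328, 4850 and 2302 CPM, with log2 ratios of −1.14 and −1.08. In the Hgf pair the difference depended on the number of selection genes, since Npnt had 1263 and 1173 CPM in control and iPCKO cells with 3 genes, 2517 and 2639 CPM with 4, 4282 and 3689 CPM with 5, and 8774 and 2504 CPM with 6. Gyg, which encodes glycogenin, the primer of glycogen synthesis, had 1022, 394, 1186 and 372 CPM, with log2 ratios of −1.38 and −1.67. Slc7a10, a transporter of small neutral amino acids, had 207, 56.4, 177 and 20.02 CPM and log2 ratios of −1.88 (−2.31 to −1.47) and −3.14 (−4.82 to −1.83), the second from 57 UMIs in all and therefore not among the 811 genes. Col13a1, the transmembrane collagen that gives these fibroblasts their name, was lower by −0.65 and −1.48, from 550.0, 350, 425 and 152 CPM. Cdh11, a cadherin of mesenchymal cells, was lower by −0.74 and −0.83.

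For other identity genes the calls differed by pair. Fgfr4, the lymphangiogenic factor Vegfd and the Wnt ligand Wnt2 were lower past the fold in the Bdnf pair, with log2 ratios of −1.11, −0.82 and −0.62, and in the Hgf pair had −0.79, −0.28 and −0.82, for Fgfr4 and Wnt2 from fewer than 100 UMIs. With free RNA subtracted the 3 ratios of the Bdnf pair were −0.52, −0.25 and −0.02, all under the fold, and that of Wnt2 was −0.09 with cells thinned to 1500 UMIs. Bmp3 was past the fold in the Hgf pair at −1.32 and had −0.37 in the Bdnf pair. Fmo2, a flavin monooxygenase, was higher in the Hgf iPCKO cells, at 4958, 6308, 2712 and 8139 CPM, with log2 ratios of 0.35 and 1.59. It was also higher in adventitial fibroblasts (1197 and 5468 CPM) and myofibroblasts (1910 and 9783 CPM) of the Hgf pair. Selenbp1 was higher in the Hgf pair as well, at 352 and 809 CPM. Cxcl14 differed little within the pairs and more between them, at 384, 355, 1699 and 2330 CPM.

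**Figure D4:**
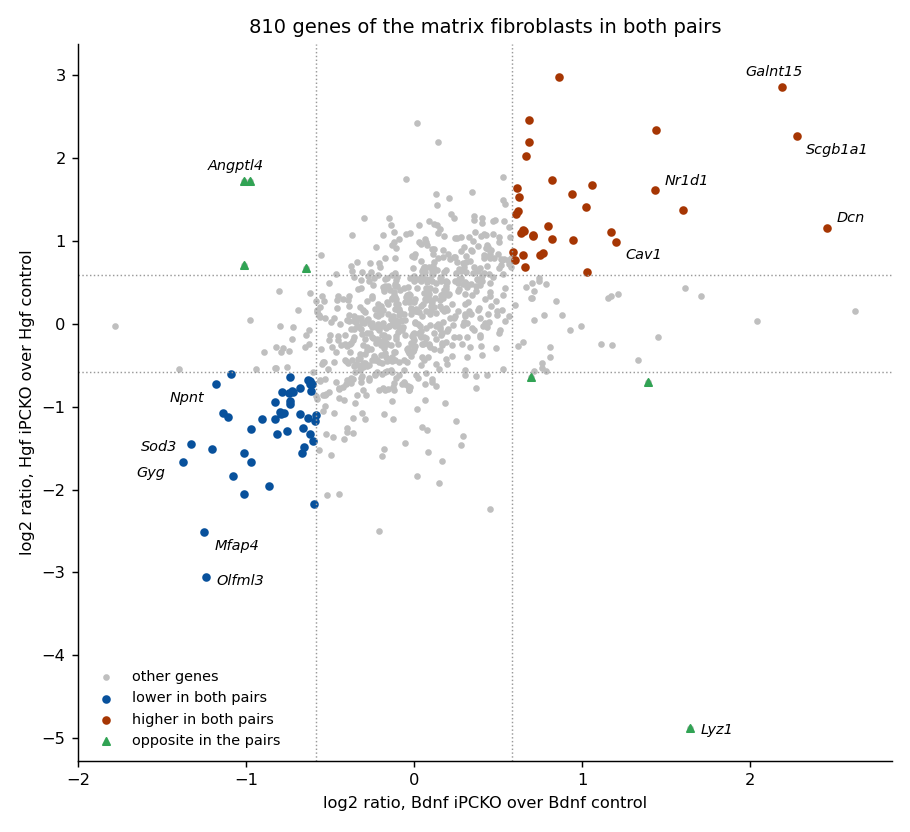
Log2 ratios of iPCKO over control in the Bdnf pair (x axis) and the Hgf pair (y axis) for the 810 genes with at least 100 UMIs in both pairs, with dotted lines at 1.5-fold. The 46 genes lower in both pairs, among them Mfap4, Gyg, Sod3, Npnt and Olfml3, lie at the lower left, the 35 genes higher in both at the upper right, and 7 genes passed the fold in opposite directions.

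Of the 810 genes measured in both pairs, 46 were more than 1.5-fold lower in both, which is 62.2% of the 74 that were lower in the Bdnf pair and 31.9% of the 144 in the Hgf pair. The 46 include the selection gene Itga8, whose level the selection bears on. The 35 genes higher in both are 48.6% of 72 and 18.5% of 189. The pairs do not share libraries, but both contrast a mutant that carries CreERT2 with a control that does not, and in both the mutant cells were shallower and had fewer selection genes. Of the 46 genes, 38 had at least 100 UMIs in adventitial fibroblasts of each pair, and 27 of these were lower in both pairs there, 6 past the fold. Their median log2 ratios in adventitial fibroblasts were −0.24 and −0.80, against −0.78 and −1.15 in the matrix fibroblasts. In myofibroblasts 21 of 27 measured genes were lower in both pairs, 2 past the fold.

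The 10 leading genes that were lower in both pairs were Gyg, Sod3, Mfap4, Olfml3, Prelp, Pcolce2, Loxl1, Npnt, Steap3 and Cd81. Sod3, the extracellular superoxide dismutase, had 4211, 1679, 3946 and 1445 CPM, with log2 ratios of −1.33 and −1.45. Prelp, a small proteoglycan of basement membranes, had 1868, 810.1, 2287 and 805 CPM, with ratios of −1.21 and −1.51. Olfml3, an extracellular glycoprotein, had 863, 365, 1302 and 156 CPM, with ratios of −1.24 and −3.06. In adventitial fibroblasts Sod3 and Prelp were past the fold in both pairs too, at 1906, 1185, 2406 and 1105 CPM for Sod3 and 518, 310.3, 565 and 337 CPM for Prelp. Gyg, the tetraspanin gene Cd81 and the metalloreductase gene Steap3 do not encode matrix proteins, with ratios of −1.01 and −1.56 for Cd81 and −1.02 and −2.05 for Steap3. For 21 of the 46 genes, not including G0s2, Pdia3, Calr and Ifitm3, the ratios were followed through 12 other settings. These 21 were lower in both pairs in each, and between 8 (free RNA subtracted) and 21 of them stayed past the fold. All 21 did so only with 1500 UMIs in all libraries, which leaves the Bdnf pair unchanged, and with median-of-ratios scaling. In the other settings at most 19 did. Genes were named in part for large ratios in these same data, so that a kept direction was partly set in advance.

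Fibrillar collagen genes and their processing proteins were lower on balance. In the Bdnf pair 5 of 18 measured genes were lower and 2 higher (median log2 ratio −0.45), and in the Hgf pair 5 of 10 were lower and none higher (median −0.58). With free RNA subtracted, which shifts ratios as given for the identity genes, the medians were 0.03 and −0.16. Col3a1 had 2995, 2745, 3212 and 1449 CPM and was lower past the fold in the Hgf pair, at −1.15. It was also lower there in adventitial fibroblasts (23279 and 11640 CPM) and myofibroblasts (4536 and 1839 CPM). Col6a3, a chain of collagen VI, was lower in both pairs, at 892, 562, 496 and 168 CPM. Pcolce2, an enhancer of procollagen processing, had 1734, 804, 1274 and 584 CPM, and Serpinh1, the collagen chaperone HSP47, had 511, 338, 687 and 152 CPM. Col1a1 was higher in the Bdnf pair (0.65) and had −0.22 in the Hgf pair, but the first ratio was 0.02 in cells with at least 4 selection genes and 0.18 with at least 5.

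Of the elastic fibre genes other than Mfap4, Eln was lower in the Bdnf pair by −0.74 (−0.79 to −0.70) and by −0.33 in the Hgf pair, from the levels given above. With free RNA subtracted the ratios of Eln were −0.34 and 0.06, which include the shift given for the identity genes. Loxl1, a cross-linking enzyme of elastin, was lower in both, at 343, 162, 571 and 160.1 CPM. Lox, the related cross-linking enzyme of collagen and elastin, had 1265, 1163, 1224 and 2630.2 CPM and was higher in the Hgf iPCKO cells (1.10). It was higher in adventitial fibroblasts and myofibroblasts of that library as well, at 481 and 2074 CPM and at 89.0 and 288 CPM. Over the list, 4 of 14 genes were lower and 2 higher in the Bdnf pair (median −0.26), and 2 of 6 lower and 1 higher in the Hgf pair (median −0.36). With free RNA subtracted, and so with the same shift, the medians were 0.08 and 0.03.

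Among proteoglycans and matricellular proteins 6 of 21 measured genes were lower and 5 higher in the Bdnf pair (median −0.25), and 4 of 13 lower and 1 higher in the Hgf pair (median −0.48). With free RNA subtracted 4 of 16 were higher and 2 lower in the Bdnf pair (median 0.10), and 2 of 13 higher and 2 lower in the Hgf pair (median −0.10). These values include the shift given for the identity genes. Fn1, which encodes fibronectin, had 1549.7, 789, 1336 and 420.3 CPM, with log2 ratios of −0.97 and −1.67. The ratios of Fn1 in adventitial fibroblasts were 0.25 and −0.86, and it had 2.43 to 22.5 CPM in AT2 cells. Bgn, the proteoglycan biglycan, was lower in both pairs, from 1724, 1047, 1557 and 877 CPM. Ogn, the proteoglycan osteoglycin, was lower past the fold in the Bdnf pair, at 4693 and 2775 CPM, and had 3786 and 2634 CPM in the Hgf pair. Thbs1, which encodes thrombospondin 1, was higher in the Bdnf pair, at 208 and 855 CPM, and had 557 and 568 CPM in the Hgf pair.

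Dcn went the other way. This gene of the proteoglycan decorin, on chromosome 10 from 97315275 to 97358155, is a marker of adventitial fibroblasts and one of the genes by which the adventitial comparison cells were chosen. It had 195, 1073, 666 and 1491 CPM and was higher in both iPCKO libraries, with log2 ratios of 2.46 (2.28 to 2.65) and 1.16 (0.91 to 1.42). Adventitial fibroblasts had 6261, 4937, 7936 and 8788 CPM of Dcn. By the number of selection genes found in a cell, Dcn had 82.8, 4056, 2755 and 2893 CPM for 3 genes, 2723, 1629, 21.9 and 1220 CPM for 4, and 18.1, 57.6, 10.7 and 0 CPM for 6. At 4 genes it was thus lower in the iPCKO cells of the Bdnf pair. In cells with at least 5 of the 6 genes the log2 ratio was 1.99 in the Bdnf pair and −2.10 in the Hgf pair, and with exclusion limits per 1500 UMIs the Bdnf pair had 0.56, under the fold. After thinning to 1000 UMIs, 5.09, 15.6, 7.02 and 15.5% of the cells had a Dcn UMI, against 0.173 to 1.69% of AT2 cells. Of the other adventitial markers, some were higher with it in the Bdnf pair, where Dcn, Serpinf1, Col14a1 and Igfbp4 were higher and Ly6a lower of 6 measured, whereas in the Hgf pair Dcn was higher and Clec3b and Igfbp4 were lower of 3. Whether cells of the adventitial type were among those chosen was not tested.

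Basement membrane genes had no common direction. Of 18 genes in the Bdnf pair 4 were higher and 2 lower (median −0.17), and in the Hgf pair 2 of 9 were higher and 1 lower (median 0.28). Col4a1 and Col4a2, the main collagen IV chains, had log2 ratios of −0.40 and −0.22 in the Bdnf pair and 0.28 and 0.59 in the Hgf pair. Nid1, the linker protein nidogen 1, had 783, 927, 435 and 761 CPM and passed the fold in the Hgf pair. Npnt, described above, was the member that was lower in both.

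Proteases and their inhibitors differed with the cells taken. Of 19 genes in the Bdnf pair 6 were higher and none lower (median 0.14), and in the Hgf pair 5 of 10 were higher and 1 lower (median 0.46). In cells with at least 5 selection genes 2 of 16 were higher and 1 lower, and 1 of 5 higher and 1 lower (median −0.05). Timp3, an inhibitor of metalloproteinases that binds to the matrix, was higher in both pairs, at 1502, 2522, 1424 and 2522.1 CPM, with log2 ratios of 0.75 and 0.82 (0.57 and 0.51 in cells with at least 5 selection genes). In adventitial fibroblasts it was lower in the iPCKO libraries, at 4231, 3472, 4039 and 1848 CPM, and in myofibroblasts likewise, at 2651, 1752, 2856 and 1431 CPM. Timp2, Mmp14 and the lysosomal protease Ctsl were higher in the Hgf pair, Ctsl at 544 and 1165 CPM. Adamts1 was higher in the Bdnf pair, at 323 and 726 CPM.

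**Figure D5:**
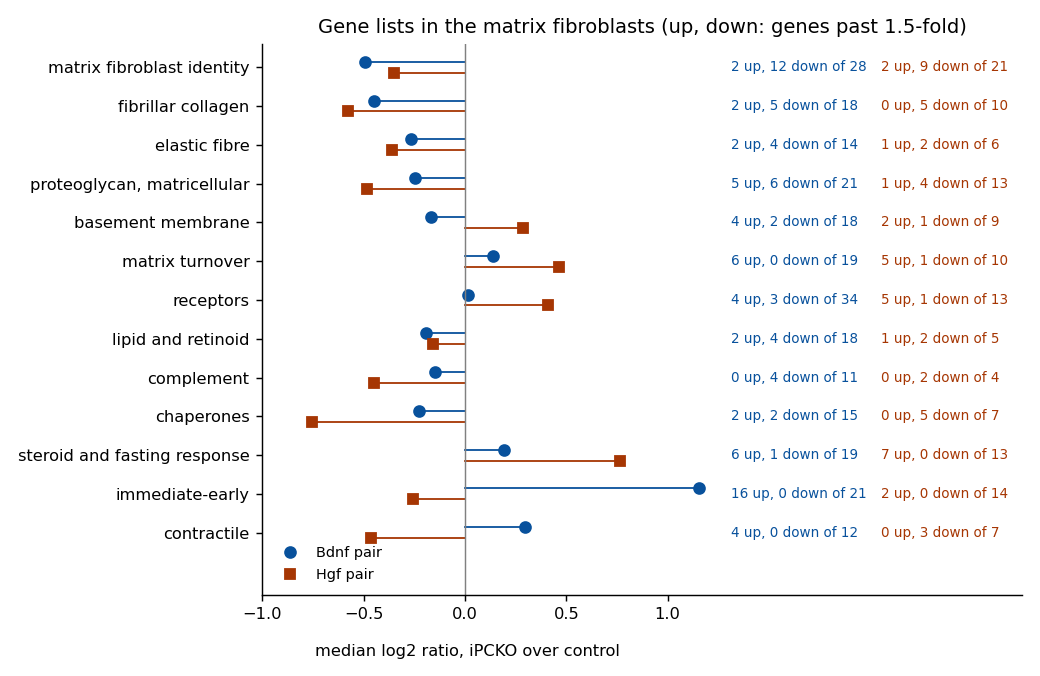
Median log2 ratio of iPCKO over control for 13 gene lists in the matrix fibroblasts, with the numbers of genes past 1.5-fold and of genes measured in the Bdnf and the Hgf pair. Identity, collagen, elastic fibre and proteoglycan lists lie below 0 in both pairs, but with free RNA subtracted no such list does. The steroid and fasting response list lies above 0 in both pairs. The immediate-early list lies at 1.15 in the Bdnf pair and −0.26 in the Hgf pair.

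Secreted factors that act on epithelium were mostly too scarce to compare. Of 37 listed genes 14 were measured in the Bdnf pair, with 4 higher and 1 lower (median 0.07), and 3 in the Hgf pair, with 1 lower. Against adventitial fibroblasts 4 of 17 measured genes were higher in all 4 libraries and 9 lower. Against myofibroblasts 1 of 17 was higher and 8 were lower. Fgf10, the ligand of FGFR2 on alveolar epithelium, had 164, 207, 133 and 132 CPM, which is close within the Hgf pair (interval of the log2 ratio −0.72 to 0.70) and higher by 0.34 (0.06 to 0.61) in the Bdnf pair. It was above the 66.5 to 79.9 CPM of adventitial fibroblasts in each library. Fgf7, which binds the same receptor, had 207, 169, 119 and 188 CPM. Wnt2 had 86.9, 56.4, 91.8 and 52.0 CPM and at most 4.73 CPM in the other fibroblasts. Bmp4 and Bmp5 had 173, 125, 180.1 and 164 CPM and 256, 231, 187 and 184 CPM. Gdf10 was higher in the Bdnf pair, at 22.2 and 91.7 CPM, and is far higher in adventitial fibroblasts (522 and 483 CPM). A Wnt2 UMI was found in 8.31, 8.68, 9.65 and 5.15% of cells thinned to 1000 UMIs, and a Fgf10 UMI in 11.8, 15.6, 10.5 and 10.3%, against at most 0.335% of AT2 cells for either gene.

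Of the factors that act on vessels or nerves, Angpt1, the Tie2 ligand, had 608, 525, 370.5 and 416 CPM, against at most 144 CPM in adventitial fibroblasts and 113 CPM in myofibroblasts. Vegfa had 486, 357, 493 and 288 CPM and was lower past the fold in the Hgf pair (−0.77), but at −0.40 with at least 5 selection genes and −0.44 with exclusion limits per 1500 UMIs. It is also on the list of alveolar type 1 markers. Angptl4, an inhibitor of lipoprotein lipase, was lower in the Bdnf pair and higher in the Hgf pair. Over the list 1 of 11 was higher and 2 lower in the Bdnf pair, and 1 of 5 higher and 1 lower in the Hgf pair.

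Of the receptors 4 of 34 were higher and 3 lower in the Bdnf pair (median 0.02), shares near the 9.45 and 7.92% of all genes, and 5 of 13 were higher and 1 lower in the Hgf pair (median 0.41). Tgfbr3, the TGF-beta coreceptor betaglycan, had 585, 566, 275 and 923 CPM, with log2 ratios of −0.05 and 1.74, and was higher in adventitial fibroblasts (268 and 656 CPM) and myofibroblasts (655 and 1886 CPM) of the Hgf iPCKO library too. Tgfbr2 (0.81), the interleukin 6 receptor gene Il6ra (1.02) and the endothelin receptor gene Ednra (0.61) were the others higher in the Hgf pair only. Igf1r, the IGF1 receptor, was higher in both pairs, at 192, 370.8, 150 and 300.2 CPM. Once free RNA was subtracted, its ratios were below 0 in both pairs, at −2.59 and −0.15, which can rest on few UMIs left. Adra1a was the receptor that was lower in both, with ratios of −0.74 and −0.93. Feedback genes of signalling pathways gave 2 higher and 2 lower of 17 in the Bdnf pair and 1 lower of 6 in the Hgf pair. Dusp6, a phosphatase induced by ERK signalling, was lower in both pairs, at 363, 215, 364 and 148 CPM.

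Lipid and retinoid genes, which mark the lipid-storing function of these fibroblasts, gave 4 lower and 2 higher of 18 in the Bdnf pair (median −0.19) and 2 lower and 1 higher of 5 in the Hgf pair (median −0.16). Lrat, the enzyme that esterifies retinol for storage, had 257, 114, 98.6 and 12.01 CPM, with a log2 ratio of −1.17 in the Bdnf pair and of −3.04 (−5.40 to −1.35) in the Hgf pair from 32 UMIs. G0s2, an inhibitor of triglyceride lipase, was lower in both pairs, at 157, 103, 364 and 220.2 CPM. Aldh1a1, a retinaldehyde dehydrogenase, was abundant at 2707, 1848, 1958 and 2466 CPM and stayed under the fold in both pairs. Lpl was higher in the Bdnf pair, at 71.0 and 312 CPM, but not in cells with at least 5 selection genes (−0.10), and adventitial fibroblasts had 423 and 410 CPM. Sterol and fatty acid synthesis genes gave 3 lower and 1 higher of 11 in the Bdnf pair and 1 lower of 2 in the Hgf pair, with free RNA above the cells in all 4 libraries.

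Among genes known to respond to glucocorticoid and fasting, more were higher than lower. In the Hgf pair 7 of 13 were higher and none lower (median log2 ratio 0.76), against 6 higher and 1 lower of 19 in the Bdnf pair (median 0.19). The median of the Hgf pair was 0.37 with at least 4 selection genes, 0.41 with 1500 UMIs in all libraries and 0.21 with at least 5 selection genes, where 2 of 6 were higher. The list was also higher in free RNA (3340 and 5952 CPM) and in AT2 cells (2375 and 4235 CPM) of that pair. Klf9, a transcription factor induced by glucocorticoid, had 790, 918, 761 and 1909.6 CPM, with ratios of 0.22 and 1.33. Sgk1, a kinase of the same response, had 131, 200, 126 and 392 CPM and was higher in both pairs. Fkbp5, the cochaperone of the glucocorticoid receptor, had 116, 135, 17.0 and 172 CPM, so that the Hgf control library stood apart with 5 UMIs. Zbtb16 likewise had 476, 483, 102 and 276 CPM, and in the Hgf pair its ratio of 1.44 was −1.92 with free RNA subtracted. The metallothionein genes Mt1 and Mt2 were higher in both pairs, but in cells with at least 5 selection genes they were at −0.31 and −0.27 in the Bdnf pair. Mt2 was at −0.42 in such cells of the Hgf pair and at −0.16 with at least 4 selection genes, where Mt1 had 0.35. Klf9 was higher in adventitial fibroblasts (569 and 1437 CPM) and myofibroblasts (1092 and 1981 CPM) of the Hgf pair too.

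Among circadian clock genes, too, more were higher than lower. In the Bdnf pair 5 of 10 were higher and 1 lower (median 0.57), and both genes measured in the Hgf pair were higher (median 1.33). The list stood at 66.9, 92.5, 72.6 and 109% of its level in free RNA, which was itself higher in the Hgf iPCKO library (1159 and 2268 CPM). Nr1d1, the clock repressor REV-ERB alpha, had 71.0, 192, 207 and 633 CPM, with ratios of 1.44 and 1.61. Hlf and Tef, clock-controlled activators, had 73.6, 209.6, 23.8 and 320.3 CPM and 52.0, 90.7, 20.4 and 132 CPM, and Tef of the Bdnf pair was at −2.03 with free RNA subtracted, where Nr1d1 and Hlf had 2.06 and 1.99. Arntl, which encodes the activator BMAL1 and cycles against Nr1d1, was lower in both iPCKO libraries, at 54.6, 32.2, 91.8 and 28.0 CPM. The direction within each pair was the same in adventitial fibroblasts, where Nr1d1 had 74.4, 127, 79.9 and 576 CPM and Arntl 36.5, 20.1, 38.9 and 26.2 CPM. The time of day at which the lungs were taken is not given in the sources used here, and its part was not tested.

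Immediate-early genes, which are induced within minutes and also by tissue dissociation, separated the Bdnf control from the other 3 libraries. The 25 listed genes summed to 12285, 23031, 23662 and 20265 CPM. In the Bdnf pair 16 of 21 were higher and none lower (median log2 ratio 1.15), and in the Hgf pair 2 of 14 were higher and none lower (median −0.26). Fos had 3896, 6814, 5618 and 4256 CPM and Egr1 1606, 3478, 3079 and 2602 CPM. In adventitial fibroblasts Fos had 5692, 5761, 5071 and 4273 CPM, so that its low level in the Bdnf control was not shared by those cells. The summed list was lowest in the Bdnf control in AT2 cells too, at 4112, 6032, 5055 and 4515 CPM. The same held in free RNA, at 9762, 12224, 11753 and 13572 CPM. In adventitial fibroblasts the sums lay closer together, at 22045, 23040, 26096 and 22557 CPM. Myofibroblasts had 50496, 49974, 56544 and 45169 CPM, where the Bdnf control was not lowest. Ier3 was the member that was higher in both pairs, with ratios of 1.60 and 1.37. Chaperone genes gave 2 higher and 2 lower of 15 in the Bdnf pair (median −0.23) and 5 lower of 7 in the Hgf pair (median −0.75), but 2 higher and 4 lower of 11 there with exclusion limits per 1500 UMIs (median −0.11). Hspb1, the small heat shock protein HSP27, was lower in both, at 867, 381, 1044 and 629 CPM. The endoplasmic reticulum proteins Calr and Pdia3 were lower in both pairs as well, and in adventitial fibroblasts too.

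Among contractile genes the calls went opposite ways, with 4 higher and none lower of 12 in the Bdnf pair (median 0.29) and 3 lower and none higher of 7 in the Hgf pair (median −0.46). Acta2, the smooth muscle actin, had 61.5, 395, 201 and 8.01 CPM. The log2 ratio was 2.68 (2.36 to 3.02) in the Bdnf pair and −4.65 (−7.73 to −2.73) in the Hgf pair, there from 61 UMIs. Myh11 went with it at 18.4 and 109 CPM in the Bdnf pair, and the summed smooth muscle markers given above follow the same order. With at least 4 selection genes no contractile gene was past the fold, of 8 measured in the Bdnf pair (median −0.03) and 5 in the Hgf pair (median −0.41). Acta2, then with fewer than 100 UMIs, had a ratio of 1.71 in the Bdnf pair and too few UMIs for a ratio in the Hgf pair. Of the list of genes known from activated fibroblasts, 6 of 11 were higher and 2 lower in the Bdnf pair, and 1 of 5 higher and 3 lower in the Hgf pair. Those higher in the Bdnf pair include Acta2, also a smooth muscle marker, Postn, also a pericyte marker, and Col1a1, which had a ratio of 0.02 with at least 4 selection genes.

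Defence genes differed by group. Complement genes gave 4 lower and none higher of 11 in the Bdnf pair and 2 lower and none higher of 4 in the Hgf pair. Interferon-stimulated genes gave 2 lower and 1 higher of 7, and 1 lower of 2. Ifitm3, an antiviral membrane protein, was lower in both pairs at 651, 390, 877 and 560.5 CPM, and also past the fold in both pairs in myofibroblasts (678, 400.2, 813 and 416 CPM). Chemokines and adhesion genes gave 3 higher and 2 lower of 9 in the Bdnf pair, with the leukocyte adhesion molecule Vcam1 lower (336 and 210 CPM) and Icam1 higher (103 and 219 CPM), and none past the fold of the 1 measured in the Hgf pair. Prostaglandin and cGMP genes gave 4 higher and none lower of 11 in the Bdnf pair and none of 1 in the Hgf pair. Of the 4, Gucy1a1 and Gucy1b1 are also on the list of pericyte markers, whose sum was higher in the same library (214 and 517 CPM).

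Growth genes differed by member. Imprinted genes gave 4 higher of 9 in the Bdnf pair and 2 higher and 2 lower of 5 in the Hgf pair, with Dcn, whose limits are given above, among the higher in both pairs. Peg3 was higher in both as well (94.52, 167, 129 and 428 CPM). IGF-binding proteins gave 2 higher of 6 in the Bdnf pair and 1 higher and 1 lower of 4 in the Hgf pair. D cyclins and cell cycle brakes gave 2 higher and 1 lower of 10, and 2 higher of 4. The 25 listed S phase and mitosis genes summed to 162, 180, 144 and 245 CPM, which is 67.4 to 101% of their level in free RNA. A separate short set of cycle genes that includes Mki67, Top2a and Ccna2 had 5, 7, 2 and 4 UMIs in all. Of this set, 2 or more UMIs were found in 0, 1, 0 and 0 cells. With a floor of 3 counts, 0 cells allow a share of up to 0.804% in the Bdnf control, 2.08% in the Hgf control and 1.94% in the Hgf iPCKO cells, where the exact 95% bounds are 0.984, 2.53 and 2.35%. These limit the cells with 2 such UMIs, not the cells in cycle, which need not show them at this depth.

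Several of the leading genes higher in both pairs are known from other cells of the lung. Scgb1a1 had 1424, 6922, 768 and 3687 CPM, with log2 ratios of 2.28 and 2.26, and is a transcript of club cells that was also higher in adventitial fibroblasts of both iPCKO libraries (313, 1631, 870 and 1879 CPM). Hopx, a marker of AT1 cells, had 122, 331, 219 and 1101 CPM. Sftpd of AT2 cells had ratios of 1.17 and 1.10, the second of which was −0.44 without cells over 1% epithelial RNA. Galnt15, which encodes an enzyme of O-glycosylation, had 64.1, 292, 129 and 937 CPM and was higher in adventitial fibroblasts (226, 373, 395 and 2175 CPM) and in myofibroblasts of the Hgf pair (146 and 1663 CPM). Cav1, the caveolar coat protein, had 95.8, 221, 190.3 and 376 CPM, and in the Hgf pair was at −0.33 with free RNA subtracted. Ribosomal protein genes such as Rpl9 and Rps23 were among the 35 genes, and their UMIs may be shared with pseudogene copies. Of these 35 genes, 33 were measured in adventitial fibroblasts, with 22 higher in both pairs and 8 past the fold, and 34 in myofibroblasts, with 28 and 7.

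Among the genes with the largest ratios in a single pair, Glul, which encodes glutamine synthetase, had 1094, 1209, 734 and 3367 CPM and was higher in the Hgf iPCKO library in adventitial fibroblasts (421 and 1895 CPM) and myofibroblasts (728 and 3716 CPM) too. Tuba1a, an alpha-tubulin gene with close paralogs, was lower in the Hgf pair at 980 and 238 CPM, and Plac9 had 119, 115, 914 and 336 CPM. In the Bdnf pair the sodium channel gene Scn3a had 316 and 71.5 CPM, Ccn5, a matricellular regulator of growth, 271 and 67.5 CPM, Gng11, a G protein gamma subunit, 300.04 and 111 CPM, and Efemp1, the matrix protein fibulin 3, 184 and 49.4 CPM. In the Hgf pair these 4 genes had fewer than 100 UMIs and were lower as well, Scn3a at 323 and 16.01 CPM and Ccn5 at 269 and 4.00 CPM. In adventitial fibroblasts Scn3a had at most 8.94 CPM in any library.

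The 2 control libraries also differed from each other. In Hgf control against Bdnf control cells, 293 of 3516 genes were higher past the fold (8.33%) and 684 lower (19.5%), with a median log2 ratio of −0.14. Spon1, Vegfd and Ces1d were lower in the Hgf control, and Cxcl14, Mgp and Plac9 were higher. The controls carry unlike lox alleles and were sequenced to unlike depth, which cannot be told apart here. Mfap4 (12753 and 10186 CPM), Npnt (5115 and 4850 CPM), Gyg (1022 and 1186 CPM), Sod3 (4211 and 3946 CPM) and Fn1 (1549.7 and 1336 CPM) were under the fold between the controls and past it within both pairs. Others of the 46 genes lower in both pairs were past the fold between the controls too. Among these, Col6a3 was lower and Loxl1 and G0s2 were higher in the Hgf control.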

How the data were processed

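Lung cells were profiled by 3' whole-transcriptome single-cell RNA-seq. The authors deposited estimated counts per gene and barcode, made with STARsolo (STAR 2.7.10a, GRCm39) with multi-gene reads shared out by expectation maximisation, so that 8.50 to 9.95% of entries are not whole. Values were summed as deposited over the chosen cells of a library and divided by their total (CPM). Exact Poisson, conditional exact and Clopper-Pearson 95% intervals were computed with numpy 2.4.6, scipy 1.17.1 and pandas 2.3.3, and doublets with Scrublet in scanpy 1.11.5. The fold is 1.5, for genes with at least 100 UMIs in a pair. Log2 ratios are iPCKO over control. Calculations were tested on simulated data.

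The members and gene lists were chosen with earlier results of these data known. Named genes are the selection genes, the targeted genes and their receptors, the 10 with the largest and smallest ratios per pair and in both pairs (by the bound nearest to 0, at least 300 UMIs for single pairs), the 15 most abundant, the 12 furthest above each other fibroblast, and listed genes past the fold or, where fewer than 3 were, with most UMIs. Other genes named for their levels were chosen after these were seen. Alternatives changed the limits, the scaling, the depth and the treatment of doublets, epithelial RNA and free RNA. Where free RNA was subtracted, values under 0 were set to 0, and a count of 0 entered a ratio as 3 UMIs. Ratios of genes abundant in free RNA can then rest on few UMIs left. In the Bdnf pair Malat1 had −4.09 and Vegfa −5.41 in this setting. Some genes are not reported here.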

Additional observations from a re-analysis of the deposited data

Results flagged for a closer look

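Of the 810 genes measured in both pairs, 7 were past 1.5-fold in opposite directions. With 1 library per genotype the difference between the pairs was not tested, and the values below are log2 ratios of the Hgf pair minus those of the Bdnf pair. Lyz1, a lysozyme gene of AT2 and other secretory cells whose reads may be shared with Lyz2, differed by −6.52, from 94.97, 297, 352 and 12.01 CPM. Igfbp4, an IGF-binding protein that is abundant in adventitial fibroblasts, differed by −2.10, from 122, 320.4, 255 and 156 CPM. Nfkbiz, a regulator of NF-kappaB, differed by −1.34, from 176, 286, 238 and 152 CPM. Of the 7 genes H1f2 alone had ratios past the fold in both pairs in each of the 12 other settings, without regard to the minimum of 100 UMIs. Lyz1 of the Bdnf pair had 0.19 without cells over 1% epithelial RNA, −0.04 with exclusion limits per 1500 UMIs and −0.12 with at least 5 selection genes and low epithelial RNA. In the Hgf pair Lyz1 had −0.83 with exclusion limits per 1500 UMIs. It had too few UMIs for a ratio there with at least 4 selection genes, without cells over 1% epithelial RNA and with 0 exclusion UMIs. Igfbp4 of the Hgf pair had 0.69 with at least 4 selection genes, and Nfkbiz of the Bdnf pair −2.79 with free RNA subtracted. The other 4 genes were lower in the Bdnf pair and higher in the Hgf pair. They were Nap1l1, a histone chaperone gene, with a difference of 1.32, Cdc42ep4, a CDC42 effector gene, with 1.72, the linker histone gene H1f2 with 2.70, and Angptl4 with 2.74. Angptl4 had 157, 77.6, 102 and 336 CPM, and H1f2 79.5, 40.3, 127 and 416 CPM. Under other settings Nap1l1 had −0.19 in the Bdnf pair (free RNA subtracted) and 0.36 in the Hgf pair (exclusion limits per 1500 UMIs), Cdc42ep4 0.25 and 0.16 in the Hgf pair (thinned, and at 1500 UMIs in all libraries), and Angptl4 −0.45 in the Bdnf pair (free RNA subtracted).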

How the results depend on the processing

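No paired analysis was possible because each genotype has 1 library. Named genes past the fold were counted here without regard to the minimum number of UMIs in a pair. They include Bdnf in the Bdnf pair and Hgf, Ntrk2, Lrat, Slc7a10 and Acta2 in the Hgf pair, all below that minimum. In the Bdnf pair 73 of 82 and in the Hgf pair 78 of 89 kept their direction in every setting with a value. The cause of the exceptions was not tested. A setting that left a gene too few UMIs gave no value and is not counted against it. In the Hgf pair Acta2, Lyz1, Hgf and Ntrk2 had a value in only 8, 7, 7 and 3 of the 12 other settings. The settings with at least 5 markers, with exclusion limits per 1500 UMIs and without cells over 1% epithelial RNA were chosen after seeing the data. Depth limits the Hgf pair to 811 genes.

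Directions (log2) turned as follows. With at least 4 markers, Mt2 (−0.16) and Igfbp4 (0.69) of the Hgf pair. With 0 exclusion UMIs, Gm56730 of the Hgf pair (−0.36). With at least 5 markers, Lpl (−0.10), Mt1 (−0.31) and Mt2 (−0.27) of the Bdnf pair and Dcn (−2.10), Lpl (−1.14) and Mt2 (−0.42) of the Hgf pair. With limits per 1500 UMIs, Lyz1 of the Bdnf (−0.04) and Sftpd of the Hgf pair (−0.13). Without cells over 1% epithelial RNA, Cbr2 (−0.45) and Sftpd (−0.44) of the Hgf pair, and with at least 5 markers too, Lpl (−0.08), Lyz1 (−0.12) and Sftpd (−0.33) of the Bdnf and Dcn (−2.01), Lpl (−1.05), Cbr2 (−0.81) and Mt2 (−0.64) of the Hgf pair. Without doublets, Cbr2 of the Bdnf pair (−0.43). Thinned to 1500 UMIs, Pdgfrb (−0.17) and Igf1r (−0.08) of the Hgf pair. With free RNA subtracted, Cbr2 (−5.19), Igf1r (−2.59), Tef (−2.03) and Nfkbiz (−2.79) of the Bdnf and Lpl (−1.97), Cbr2 (−5.07), Cav1 (−0.33), Igf1r (−0.15) and Zbtb16 (−1.92) of the Hgf pair.

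Genes higher and lower numbered 129 and 93 (Bdnf pair) and 79 and 63 (Hgf pair) at 2-fold, 7390 and 4103 and 5044 and 4534 with no filter on UMIs, and 195 and 147 and 58 and 55 when thinned. With 0 exclusion UMIs 211 were higher in the Bdnf pair, and 114 and 90 were higher and lower in the Hgf pair. In the Hgf pair they were 62 and 93 with at least 5 markers, 333 and 229 with limits per 1500 UMIs, 56 and 79 with at least 5 markers and low epithelial RNA (then 227 lower in the Bdnf pair), and 124 higher at 1500 UMIs. The share of barcodes chosen was 0.607 and 0.408% in the Hgf libraries at 1500 UMIs, 1.02% (Bdnf iPCKO), 0.802 and 0.651% (Hgf) with at least 4 markers, 1.33, 0.572, 0.639 and 0.714% with 0 exclusion UMIs, 1.86, 0.799, 0.539 and 0.234% with at least 5 markers, 3.34, 2.09 and 1.27% (first 3 libraries) with limits per 1500 UMIs, 0.955% (Bdnf iPCKO) with low epithelial RNA, 1.75, 0.677, 0.518 and 0.215% with both, and 3.30, 2.10 and 0.516% (Bdnf libraries and Hgf iPCKO) when thinned.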
